A study of Saccharomyces cerevisiae with 2 samples.

Results

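The genes described here carry mating communication in the budding yeast Saccharomyces cerevisiae. They encode the mating pheromones, their receptors, the exporter and the protease of the pheromones, and the G protein and its regulator that pass the signal on. The set holds 10 genes of the 5734 in the deposited series table. For 9 of them the table's symbol matched, and MF(ALPHA)1 was found by its RefSeq accession because its symbol is cut to "alpha" there, a symbol that 2 rows share. The genes were MF(ALPHA)1, MFA1, MFA2, STE2, STE3, STE6, BAR1, GPA1, STE18 and SST2. Messenger RNA was sequenced from the mutant strain Y518, which the series title describes as a high producer of glutathione, and from the wild-type strain 2-10515. A seed culture of each strain grew at 30 °C and 180 rpm for 18 h, and cells were harvested after 24 h of fermentation under the same conditions. The sources used here give neither the mutation of Y518 nor the mating type, the ploidy or the relatedness of the strains. Each strain was sequenced as 1 library, so the strains could not be tested against each other and the values carry no p-value.

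Haploid yeast exists as a cells and alpha cells. An a cell secretes a-factor and carries Ste2, the receptor for alpha-factor, and an alpha cell secretes alpha-factor and carries Ste3, the receptor for a-factor. Both receptors act through the same G protein and kinase cascade, which arrest the cell cycle and switch on mating genes. In a/alpha diploid cells the repressor formed by a1 and alpha2 shuts off haploid-specific genes, alpha2 with Mcm1 shuts off a-specific genes, and the loss of alpha1 leaves alpha-specific genes without their activator.

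Uniquely mapped reads numbered 4.32 M in the Y518 library, on 5681 genes, and 4.71 M in the 2-10515 library, on 5664 genes. Levels are in RPKM, the authors' read counts scaled to coding length and library total. Median RPKM over all listed genes was 46.8 in Y518 and 38.6 in 2-10515. The 5415 genes whose mean reached 5 RPKM were compared by the log2 ratio of RPKM + 1 in Y518 over RPKM + 1 in 2-10515, and a difference of at least 2-fold was counted. The median of these log2 ratios was 0.27, a general offset towards Y518. The fold printed for a gene divides its share of the reads in Y518 by that in 2-10515, with an exact 95% binomial interval that covers counting error only.

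The pheromone genes differ in how they encode their product. MF(ALPHA)1 (YPL187W, chrXVI:193648-194145, plus strand, reference assembly R64) encodes a secreted precursor with 4 tandem units of alpha-factor, each of 39 bases or 13 codons. MF(ALPHA)2 (YGL089C, chromosome VII, minus strand) holds 2 units. They are shown because reads were counted only where they mapped uniquely, and the units repeat. Sequences are from the RefSeq R64 assembly, and capitals mark bases that differ from the first unit of MF(ALPHA)1.
MF(ALPHA)1 unit 1: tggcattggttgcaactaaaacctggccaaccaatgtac
MF(ALPHA)1 unit 2: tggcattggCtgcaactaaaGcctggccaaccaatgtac
MF(ALPHA)1 unit 3: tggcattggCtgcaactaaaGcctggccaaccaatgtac
MF(ALPHA)1 unit 4: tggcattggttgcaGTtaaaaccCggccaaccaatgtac
MF(ALPHA)2 unit 1: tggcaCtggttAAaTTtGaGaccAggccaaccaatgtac
MF(ALPHA)2 unit 2: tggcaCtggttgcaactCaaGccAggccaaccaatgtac
A gene with 1 read was covered over 49 bases. Of the 450 stretches of 49 bases in the MF(ALPHA)1 coding sequence, 384 (85.3%) occur once in R64 and 66 occur more often. In the other 9 genes every such stretch occurs once.

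The a-factor genes are much shorter. MFA1 (YDR461W, chrIV:1385176-1385286, plus strand) has 111 coding bases and MFA2 (YNL145W, chrXIV:352414-352530, plus strand) has 117. Each encodes a precursor of 36 or 38 residues that is farnesylated, trimmed and exported as a lipopeptide. Capitals mark the 36 bases that encode the 12 residues of mature a-factor, in which the 2 genes differ at 7 bases (80.6% identity).
MFA1: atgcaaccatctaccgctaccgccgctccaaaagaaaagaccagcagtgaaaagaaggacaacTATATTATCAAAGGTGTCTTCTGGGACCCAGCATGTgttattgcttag
MFA2: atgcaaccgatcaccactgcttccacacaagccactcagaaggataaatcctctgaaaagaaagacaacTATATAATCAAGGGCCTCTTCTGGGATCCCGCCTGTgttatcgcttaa

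The pheromone genes included the largest difference of the set. MF(ALPHA)1 had 4 reads (1.86 RPKM) in Y518 and 180 reads (76.8 RPKM) in 2-10515. The reads covered 125 of 498 coding bases in Y518 and 457 in 2-10515. The gene was 41.3-fold lower in Y518 (95% counting interval 15.8 to 153), with a log2 ratio of -4.76, and 10 of the 5415 genes compared had a lower ratio. In bulk RNA, fewer cells that express a gene and less RNA per cell cannot be told apart. The genes next to it on chromosome XVI had reads in both libraries. POS5, the mitochondrial NADH kinase gene on one side, had 323 reads in Y518 and 181 in 2-10515. On the other side UIP4 had 1568 reads in Y518 and 1327 in 2-10515. Behind POS5 lies GUP2, which had 6 reads in Y518 and 36 in 2-10515, and behind UIP4 lies MRN1 with 366 reads in Y518 and 307 in 2-10515. The low count of MF(ALPHA)1 was not shared by either adjacent gene. GUP2, below the RPKM minimum, was 5.50-fold lower in Y518 (2.30 to 16.0). The part of the region in the ratio of MF(ALPHA)1 was not tested. The second alpha-factor gene, MF(ALPHA)2, had 20 reads (12.8 RPKM) in Y518 and 26 reads (15.2 RPKM) in 2-10515. Its ratio of 0.84 had an interval of 0.44 to 1.56.

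Both a-factor genes had few reads in both strains. MFA1 had 10 reads (20.9 RPKM) in Y518 and 7 reads (13.4 RPKM) in 2-10515, a ratio of 1.56 with an interval of 0.54 to 4.82. MFA2 had 3 reads (5.94 RPKM) in Y518 and 8 reads (14.5 RPKM) in 2-10515. Its log2 ratio of -1.16 passed the 2-fold rule, but the counting interval of the ratio, 0.070 to 1.70, included 1. Both intervals thus included 1, and at this depth only a large difference in a-factor transcripts could have been seen. The genes beside MFA1 were TFB3, with 228 reads in Y518 and 222 in 2-10515, and CMI8, with 375 reads in Y518 and 89 in 2-10515. Beside MFA2, YNL146W had 15 reads in Y518 and 8 in 2-10515, and MPF1 had 1446 in Y518 and 935 in 2-10515. The second genes out were PFA5 and MRPL28 at MFA1, with 140 and 267 reads in Y518 and 79 and 292 in 2-10515. At MFA2 they were YNL146C-A and YNL143C, with 0 and 3 reads in Y518 and 2 and 4 in 2-10515.

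**Figure D1:**
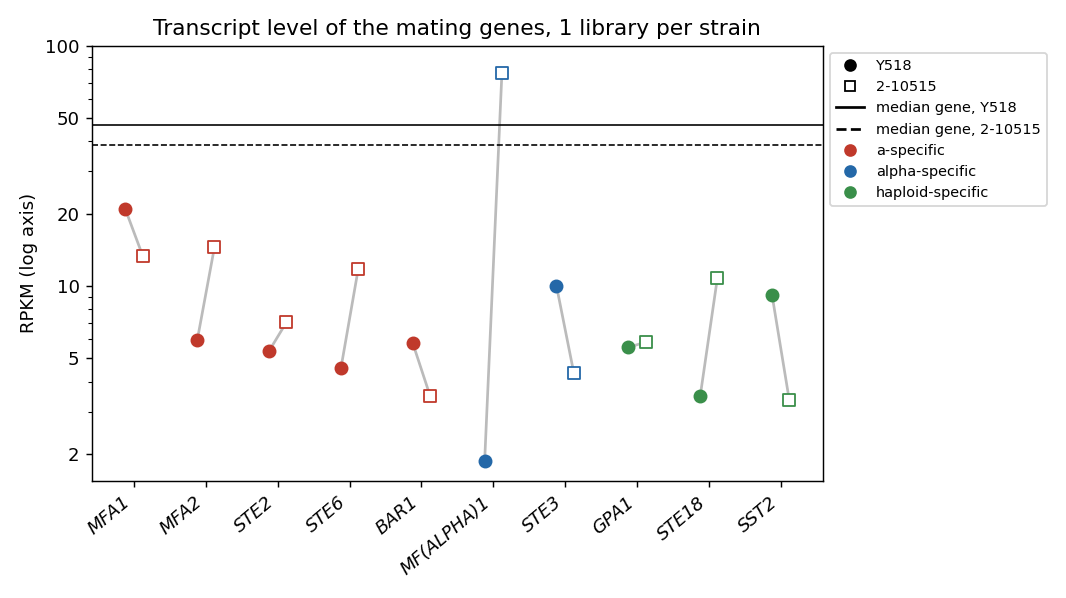
Transcript level (RPKM, log axis) of the 10 mating genes in Y518 (filled circles) and 2-10515 (open squares), 1 library each, coloured by the cell type that expresses them; horizontal lines mark the median of all listed genes (46.8 RPKM in Y518, 38.6 RPKM in 2-10515). Only MF(ALPHA)1 in 2-10515, at 76.8 RPKM, lies above its library's line.

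Of the receptor genes, 1 passed the 2-fold rule and 1 did not. STE3 (YKL178C, chrXI:113215-114627, minus strand), the a-factor receptor of alpha cells, had 61 reads (10.0 RPKM) in Y518 and 29 reads (4.36 RPKM) in 2-10515. It was 2.29-fold higher in Y518 (1.45 to 3.70). STE2 (YFL026W, chrVI:82580-83875, plus strand), the alpha-factor receptor of a cells, had 30 reads (5.36 RPKM) in Y518 and 43 reads (7.05 RPKM) in 2-10515. Its ratio of 0.76 had an interval of 0.46 to 1.24, which includes 1. Both receptor genes had reads in both strains, as almost all listed genes did. Reads covered 83.3% of the STE3 length in Y518 and 62.9% in 2-10515. They covered 72.9% of the STE2 length in Y518 and 73.4% in 2-10515. Median coverage over all listed genes was 97.7% in Y518 and 97.0% in 2-10515. STE3 passed the 2-fold rule by a narrow margin, with a log2 ratio of 1.04, and was at 0.76 once ratios were centred on the median of all genes.

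Export of a-factor depends on STE6 (YKL209C, chrXI:42423-46295, minus strand), an ATP-binding cassette transporter, and BAR1 encodes the secreted protease with which a cells degrade alpha-factor. STE6 had the most reads of the set over both libraries together (290), 76 (4.55 RPKM) in Y518 and 214 (11.7 RPKM) in 2-10515. It was 2.58-fold lower in Y518 (1.98 to 3.40), with a log2 ratio of -1.20, and was covered over 58.0% of its length in Y518 and 83.8% in 2-10515. BAR1 (YIL015W, chrIX:322342-324105, plus strand) had 44 reads (5.78 RPKM) in Y518 and 29 reads (3.49 RPKM) in 2-10515, a ratio of 1.66 with an interval of 1.01 to 2.74. Its mean of 4.63 RPKM kept it below the minimum for the comparison. The 196 genes compared on chromosome IX, where BAR1 lies, had a median log2 ratio of 1.01, against medians between -0.11 and 0.41 on the other 15 chromosomes. The log2 ratio of BAR1, 0.59, lay below that chromosome's median, and the part of the chromosome in it was not tested.

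In the G protein the alpha subunit gene GPA1 (YHR005C, chrVIII:113499-114917, minus strand), whose product restrains the signal until pheromone binds, was close to even. It had 34 reads (5.55 RPKM) in Y518 and 39 reads (5.84 RPKM) in 2-10515, a ratio of 0.95 with an interval of 0.58 to 1.55. STE18 (YJR086W, chrX:586068-586400, plus strand), the gamma subunit gene, had 5 reads (3.48 RPKM) in Y518 and 17 reads (10.8 RPKM) in 2-10515. That was 3.12-fold lower in Y518, on a wide interval of 1.10 to 10.8. The beta subunit gene STE4, not among the 10, had 27 reads in Y518 and 20 in 2-10515. Adjacent to STE18, TMH11 had 633 reads in Y518 and 864 in 2-10515, and EMC2 had 213 in Y518 and 203 in 2-10515. YJR084W and BIR1, the next genes out, had 137 and 444 reads in Y518 and 153 and 336 in 2-10515. SST2 (YLR452C, chrXII:1039270-1041366, minus strand) encodes the GTPase-activating protein that turns Gpa1 off and so helps cells recover from pheromone. It had 83 reads (9.17 RPKM) in Y518 and 33 reads (3.34 RPKM) in 2-10515, 2.74-fold higher in Y518 (1.81 to 4.24). Its log2 ratio of 1.23 dropped to 0.95, below 2-fold, with that centring.

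**Figure D2:**
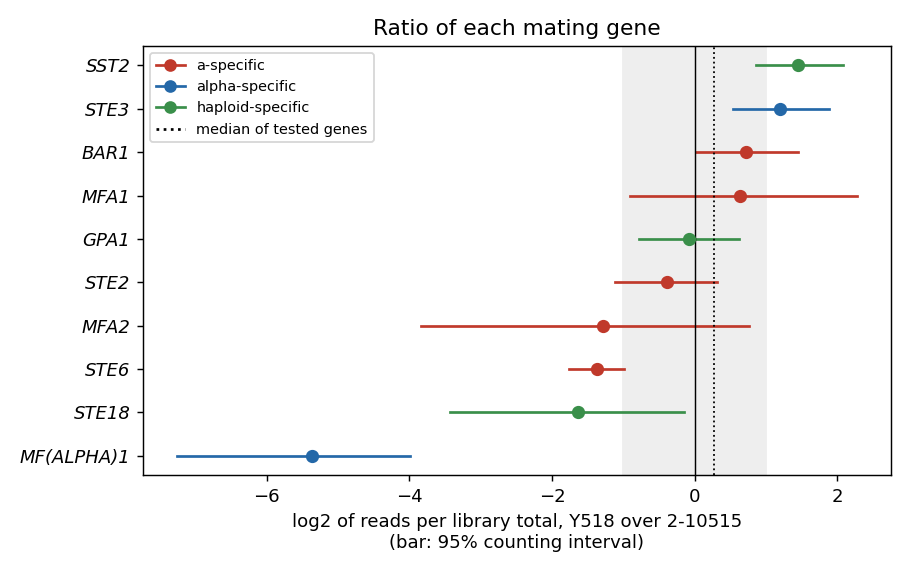
Log2 ratio of reads per library total, Y518 over 2-10515, for each of the 10 genes (points) with its 95% counting interval (bars); the grey band marks differences under 2-fold and the dotted line the median log2 ratio of RPKM + 1 over all genes compared, 0.27. MF(ALPHA)1 is the gene whose whole interval lies outside the band, and the intervals of MFA1, MFA2, STE2 and GPA1 include 0.

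Of the 10 genes, 9 passed the RPKM minimum. In Y518 2 of them were at least 2-fold higher (STE3 and SST2), where 19.9% of all genes compared were, and 4 were at least 2-fold lower (MF(ALPHA)1, MFA2, STE6 and STE18), where 8.88% of all genes were. The other 3 were within 2-fold. Without the minimum, BAR1 entered and the same 6 genes were called. Of those 6, the counting interval excluded 1 for 5, and for MF(ALPHA)1 it lay wholly beyond 2-fold. That of STE6 (1.98 to 3.40-fold lower) ended just short of this. The intervals use the deposited library totals and were not computed after centring. These intervals do not hold the spread between cultures, which 1 library per strain cannot show. After centring, 13.2% of all genes were higher and 13.6% lower, and 0 of the 9 genes were higher and the same 4 lower. These shares are over genes of all levels, whereas most of the 9 genes had low levels, at which counting error is larger. The set was not compared with genes of its own level, so nothing is read from its counts.

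Levels were low in both libraries. In Y518 all 10 genes lay below the median of all listed genes, and MFA1, the highest, exceeded 24.4% of listed genes. In 2-10515 9 of 10 lay below the median, MF(ALPHA)1 exceeded 68.7% of listed genes, and the highest of the other 9 was MFA2 at 14.5 RPKM. Per kilobase, the order in Y518 was MFA1, STE3, SST2, MFA2, BAR1, GPA1, STE2, STE6, STE18 and MF(ALPHA)1. In 2-10515 it was MF(ALPHA)1, MFA2, MFA1, STE6, STE18, STE2, GPA1, STE3, BAR1 and SST2. The exact Poisson 95% intervals of neighbours in this order overlapped for 9 of 9 pairs in Y518 and for 8 of 9 in 2-10515. The exception was MF(ALPHA)1 (66.0 to 88.8 RPKM) above MFA2 (6.27 to 28.6 RPKM) in 2-10515. Thus MF(ALPHA)1 stood first in 2-10515 and last in Y518. Its interval in Y518, 0.51 to 4.76 RPKM, overlapped that of STE18 (1.13 to 8.12 RPKM). It also overlapped those of STE6, STE2, GPA1, BAR1 and MFA2, but not those of SST2, STE3 and MFA1.

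**Figure D3:**
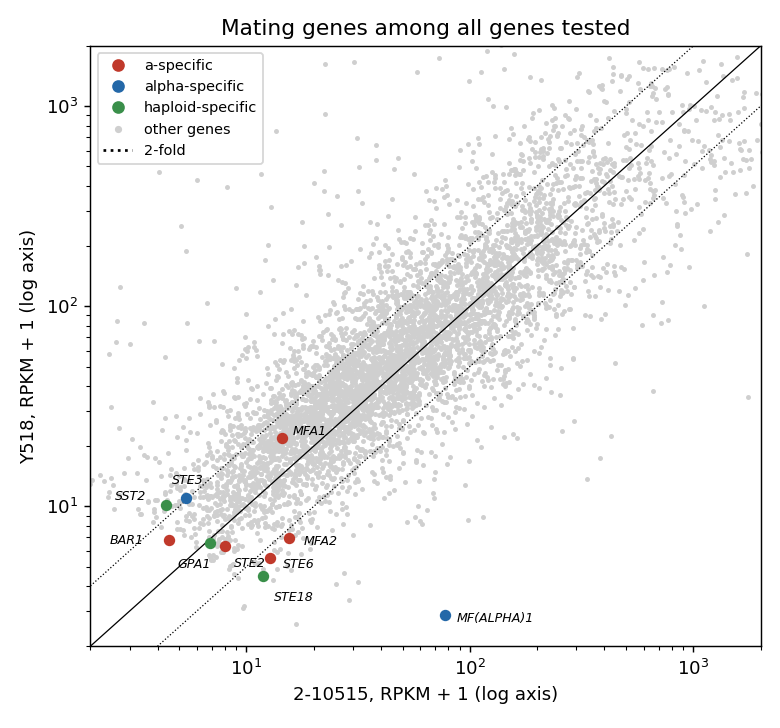
RPKM + 1 in Y518 (vertical) against 2-10515 (horizontal), both on log axes, for the genes compared (grey; those beyond the axis limits are not drawn) and the 10 mating genes, of which BAR1 is below the minimum for the comparison; the solid line marks equality and the dotted lines 2-fold. The mating genes sit at the low end of both axes, apart from MF(ALPHA)1, at 1.86 RPKM in Y518 and 76.8 RPKM in 2-10515.

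The upstream sequences were read from R64 in a window of 250 bases before and 50 bases from the start codon. They are shown for the a-specific genes because these share a known control element, the operator at which alpha2 and Mcm1 bind in alpha and diploid cells. In capitals are the letters that match TTACCNANNNNGGAAATTTACA, a form of the operator taken from these windows themselves. It is the longest word that all 4 share, 11 bases, extended upstream by its own length with N where they differ. Each sequence is given in the orientation of that motif, with 4 flanking bases on each side.
MFA1 (chrIV:1384945-1384974, plus strand): gtaaTTACCcAaaaaGGAAATTTACAtgtt
MFA2 (chrXIV:352166-352195, plus strand): gtatTTACCtAttcgGGAAATTTACAtgac
STE2 (chrVI:82349-82378, minus strand): gtacTTACCcAattaGGAAATTTACAtggt
STE6 (chrXI:46475-46504, minus strand): gtaaTTACCtAatagGGAAATTTACAcgct
The first base of the motif lay 227 bases before the start codon in MFA1, 244 in MFA2 and 205 in STE6. In STE2 it lies on the strand opposite to the gene, between 227 and 206 bases before the start codon. Searched on both strands, the motif was in 4 of 6026 windows (0.0664%), those of the 4 genes it was taken from, and the BAR1 window held no full match. Of the genes with this element, STE6 and MFA2 were at log2 ratios of -1.20 and -1.16, STE2 was at -0.34 and MFA1 at 0.60. These differences between genes were not tested. The counting interval of the MFA2 ratio overlapped those of the other 3. That of STE6 (0.29 to 0.51) overlapped that of STE2 (0.46 to 1.24) but lay below that of MFA1 (0.54 to 4.82).

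The pheromone response element TGAAACA, to which Ste12 binds, was found on either strand in the windows of MFA2, STE2, STE6, BAR1, STE18 and SST2, 6 of the 10 genes. It was present in 7.47% of all 6026 windows. Log2 ratios of these 6 genes ran from -1.40 for STE18 to 1.23 for SST2. The window of MF(ALPHA)1 (chrXVI:193398-193697, plus strand), the gene with the largest difference, held neither motif and is shown with its start codon in capitals.
MF(ALPHA)1 window: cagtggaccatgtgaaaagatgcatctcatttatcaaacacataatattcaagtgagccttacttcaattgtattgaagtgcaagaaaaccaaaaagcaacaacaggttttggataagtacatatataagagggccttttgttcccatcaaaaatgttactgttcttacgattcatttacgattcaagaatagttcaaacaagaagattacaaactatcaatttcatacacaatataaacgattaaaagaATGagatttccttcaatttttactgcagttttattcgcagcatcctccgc

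Grouped by the cell type that normally expresses them, every class had reads in both strains. So did almost all genes: of 5734 listed, 5681 had a read in Y518 and 5664 in 2-10515. Having reads therefore does not show that the genes of a class were active in a strain. The counts of each list stand beside 19.9% higher, 8.88% lower and 28.8% in either direction over all genes compared, and no list was tested against these shares. The 7 a-specific genes (MFA1, MFA2, STE2, STE6, BAR1, AGA2 and ASG7) ran from 4.55 to 20.9 RPKM in Y518 and from 1.61 to 14.5 RPKM in 2-10515. All 7 lay below the median gene of each library, and none was at 0. Of the 5 that were compared, 2 were at least 2-fold lower and 0 higher, with a median log2 ratio of -0.34. ASG7, another a-specific gene, had 32 reads in Y518 and 29 in 2-10515, and AGA2, the a-agglutinin subunit gene, had 6 in Y518 and 2 in 2-10515.

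The 5 alpha-specific genes ran from 1.86 to 20.2 RPKM in Y518 and from 4.36 to 76.8 RPKM in 2-10515. Of these, 1 was higher in Y518, 1 lower and 3 within 2-fold, with a median log2 ratio of -0.65. SAG1, the alpha-agglutinin gene, had 170 reads (20.2 RPKM) in Y518 and 296 reads (32.2 RPKM) in 2-10515. AFB1, which encodes a barrier protein for a-factor, had 22 reads (7.55 RPKM) in Y518 and 46 reads (14.5 RPKM) in 2-10515 and became at least 2-fold lower after centring (-1.13). Before centring, STE3 therefore stood at the opposite side of the 2-fold band from MF(ALPHA)1, the other alpha-specific gene called. After centring, STE3 was within the band at 0.76, and the list held 0 higher and 2 lower genes.

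Among 12 haploid-specific genes, levels ran from 0.66 to 14.0 RPKM in Y518 and from 0.72 to 22.2 RPKM in 2-10515, all below the median gene of the library. Of the 8 compared, SST2 and RDH54 were at least 2-fold higher in Y518, STE18 was lower and 5 were within 2-fold, with a median log2 ratio of -0.22. After centring, 0 were higher and 1 was lower, beside 13.2% and 13.6% of all genes. RDH54, a DNA repair translocase gene, was 2.26-fold higher (1.69 to 3.05), but its log2 ratio after centring was 0.77, below 2-fold. STE5, the scaffold of the kinase cascade, had 38 reads in Y518 and 88 in 2-10515 and was below the minimum. HO, the mating-type switching endonuclease gene, had 5 reads in Y518 and 6 in 2-10515. AXL1, an a-factor protease gene, had 110 reads in Y518 and 197 in 2-10515. FAR1, which encodes the inhibitor that arrests the cell cycle, had 91 in Y518 and 133 in 2-10515, and the MAP kinase gene FUS3 had 64 in Y518 and 111 in 2-10515.

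Of the mating-type cassettes, HMRA1, which encodes the a1 repressor, had 189 reads (115 RPKM) in Y518 and 380 reads (212 RPKM) in 2-10515. It was 1.84-fold lower in Y518 (1.54 to 2.21), within the 2-fold rule, and at -1.15 on the log2 scale after centring. Its level was above the median gene in both libraries, unlike the a-specific and haploid-specific genes. The R64 assembly carries a1 at HMR alone, so reads from an a1 copy elsewhere in these strains may have been counted on the same row. No listed gene was matched to MATALPHA1, MATALPHA2, HMLALPHA1, HMLALPHA2 or HMRA2, so these were not analysed here. In R64 each of these coding sequences has a copy at another locus with 100% identity over its whole length (528, 633 and 360 bases for alpha1, alpha2 and a2). Without a matched gene no value for alpha1 or alpha2 transcripts is given, and mating type and ploidy were not tested.

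The signalling steps that all cell types share come next. Of the 17 kinase cascade and Ste12 genes 16 were within 2-fold, 1 was higher and 0 were lower, where 28.8% of all genes were at least 2-fold apart. Their median log2 ratio was 0.04, against 0.27 over all genes. PTP2, a phosphatase of MAP kinases, was the higher gene, with 973 reads (100.0 RPKM) in Y518 and 422 reads (39.8 RPKM) in 2-10515, 2.52-fold (2.24 to 2.83). STE20, the p21-activated kinase, had 56.7 RPKM in Y518 and 55.0 RPKM in 2-10515, and DIG1, which encodes an inhibitor of Ste12, had 78.1 RPKM in Y518 and 83.1 RPKM in 2-10515. RGA1, a GTPase-activating protein gene for Cdc42, had 41.7 RPKM in Y518 and 28.9 RPKM in 2-10515. STE12, the transcription factor at the end of the cascade, had 9.75 RPKM in Y518 and 12.2 RPKM in 2-10515. Median levels of this list were 41.1 RPKM in Y518 and 33.2 RPKM in 2-10515, whereas those of the a-specific list were 5.78 RPKM in Y518 and 9.78 RPKM in 2-10515. For the haploid-specific list they were 6.29 RPKM in Y518 and 6.31 RPKM in 2-10515.

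Among the 9 enzymes that process the pheromones, 8 were within 2-fold and 1 was higher, where 19.9% of all genes were, with a median log2 ratio of 0.05. STE13, the dipeptidyl aminopeptidase that trims alpha-factor, was 2.60-fold higher in Y518 (2.23 to 3.05) on 549 reads in Y518 and 230 in 2-10515. KEX2, the protease that cuts the alpha-factor precursor between its units, had 343 reads in Y518 and 228 in 2-10515, and KEX1, which trims the ends, had 650 in Y518 and 686 in 2-10515. The a-factor enzymes STE24 and STE23 had 1267 and 653 reads in Y518 and 1167 and 1102 in 2-10515. The lowest count among these enzymes was that of STE14, which methylates a-factor, with 13 reads in Y518 and 26 in 2-10515. Its ratio of 0.55 had an interval of 0.26 to 1.10, and after centring its log2 ratio of -1.02 passed the 2-fold rule as lower.

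Of 14 agglutination, fusion and karyogamy genes, most of them known to be induced by pheromone, 8 were compared, with 2 higher, 1 lower and 5 within 2-fold and a median log2 ratio of 0.49. With 3 of 8 genes apart, beside 28.8% of all genes, nothing is read from the count. PRM4 was 2.64-fold higher (2.39 to 2.92) at 367 RPKM in Y518 and 139 RPKM in 2-10515, and PRM3, a karyogamy gene, 2.85-fold higher (1.73 to 4.82) on 60 reads in Y518 and 23 in 2-10515. GIC2, an effector of Cdc42 in cell polarity, was 3.52-fold lower (3.01 to 4.14), at 39.8 RPKM in Y518 and 140 RPKM in 2-10515. The 3 other genes with the most reads were within 2-fold. FIG2, a wall adhesin gene, had 421 reads in Y518 and 450 in 2-10515. AGA1, the anchor of the a-agglutinin, had 184 reads in Y518 and 108 in 2-10515, and KAR4 had 97 in Y518 and 95 in 2-10515. FUS1 and FUS2, which act in cell fusion, had 26 and 10 reads in Y518 and 43 and 18 in 2-10515, both below the minimum. FIG1 and PRM6 had 4 and 0 reads in Y518 and 2 and 1 in 2-10515. The list thus held genes at 367 RPKM beside genes at the limit of detection.

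**Figure D4:**
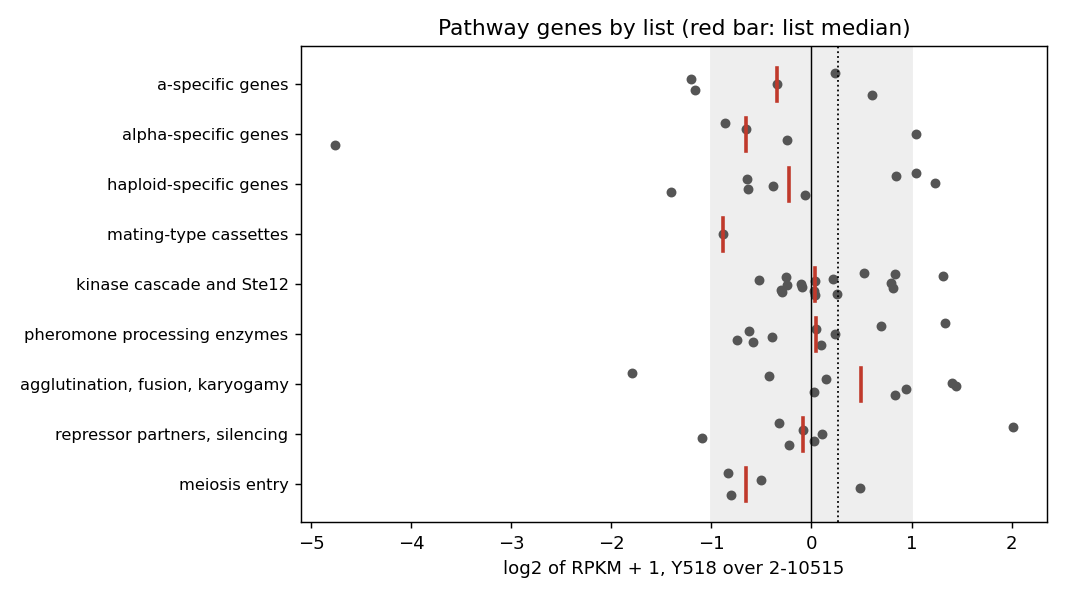
Log2 ratio of RPKM + 1, Y518 over 2-10515, for every gene compared in 9 lists of mating and cell-type genes (points), with the list median (red bar), the band under 2-fold (grey) and the median of all genes compared, 0.27 (dotted line). The medians run from -0.88, for the single mating-type cassette gene compared, to 0.49 for the agglutination, fusion and karyogamy genes; the point at -4.76 is MF(ALPHA)1.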

How the data were processed

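The authors deposited, per the file headers, the count of uniquely mapped reads per gene, the percent of its length under reads, and the RPKM for each library. Aligner, build and use of strand: not given in the sources used here. The deposited RPKM equalled reads over listed length and library total (0 mismatches beyond a relative difference of 1e-06). Listed lengths of the 10 genes equal their R64 coding lengths. A dash was read as 0. Accessions were matched to RefSeq R64 (5713 of 5734, ignoring version), and coordinates are those of R64, since the build behind the counts is not named. No other R64 coding gene overlaps the 10, and none has a near-identical copy (at least 95% identity over 100 bases, BLAST+ 2.17.0).

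Ratios used a pseudocount of 1 RPKM and a minimum mean of 5 RPKM over the whole table. Because there is 1 library per strain, counts over all genes were not tested. Intervals are Clopper-Pearson or exact Poisson and cover counting error only. They take each read as independent, which PCR copies of a molecule are not. The 2-fold rule and the counting intervals were tested on simulated data that held counting error alone. Changes were planted there well beyond 2-fold, and only in genes of higher level than most of the 10. Detection of changes near 2-fold, or at the level of genes such as MFA2 and STE18, was thus not examined. Python 3.11.15, SciPy 1.17.1, R 4.3.3, edgeR 4.0.16 (TMM) and DESeq2 1.42.0 (size factors) were used. The genes, lists and tests were chosen with earlier results of these data known. Named are all 10 genes, each list's genes at least 2-fold apart, up to 3 more per list with the most reads, and 2 genes on either side of a gene with under 10 reads in 1 library. AGA2, STE4, STE5, HO, RME1, STE12, KEX2, STE14, FUS1, FUS2, FIG1, PRM6 and NDT80 were named after their values were seen.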

Additional observations from a re-analysis of the deposited data

How the results depend on the processing

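Log2 ratios of the 9 genes compared kept their sign under 8 alternative settings. Only the 3 other scalings could have changed a sign, and only that of a positive ratio, since they lower all ratios. BAR1, below the RPKM minimum, was computed only with that minimum lifted, which left its ratio unchanged. The lower calls of MF(ALPHA)1, MFA2, STE6 and STE18 held under these scalings, with a pseudocount of 0.1 RPKM, and without the minimum or near-identical copies. None of those settings could remove these lower calls, since each lowers their ratios or leaves them unchanged. With a pseudocount of 5 RPKM, or at a 3-fold threshold, 0 of the 9 genes compared were higher and 1, MF(ALPHA)1, was lower. Its log2 ratio ran from -5.29 to -3.58. Higher calls numbered 0 after centring on the median, 0 with DESeq2 size factors and 1 (SST2) with TMM, against 2. Over all genes, 1076 higher and 481 lower became 714 and 737 after centring, 715 and 731 with DESeq2 size factors, and 451 and 209 at 3-fold. Of all called genes, 69.1% were higher with the deposited scaling, 49.2% once centred and 50.6% under TMM. Of the 64 list genes compared, 8 were higher and 6 lower. These counts became 5 and 11 after centring, 5 and 10 with DESeq2 size factors, 5 and 3 with a pseudocount of 5 RPKM, and 1 and 2 at 3-fold, and lower genes numbered 10 with TMM. The scalings differ by construction in the offset they remove, and a larger pseudocount or threshold by construction calls fewer genes. No paired analysis was possible because each strain has 1 library. With 3 to 17 reads, MFA1, MFA2 and STE18 allow only large differences to be seen.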

Other observations

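The partners of the cell-type repressors and the silencing genes, which keep the HML and HMR cassettes shut, were at least 2-fold apart at 2 of 7 members, near the 28.8% of all genes compared, so nothing is read from the count. SIR3, a structural silencing protein gene, had 260 reads (20.5 RPKM) in Y518 and 60 reads (4.34 RPKM) in 2-10515, 4.73-fold higher in Y518 (95% counting interval 3.56 to 6.37). CYC8, the corepressor gene whose product acts with Tup1, had 521 reads (41.6 RPKM) in Y518 and 1228 reads (89.9 RPKM) in 2-10515, 2.16-fold lower (1.95 to 2.40). MCM1 had 1121 reads in Y518 and 1427 in 2-10515, TUP1 had 1092 in Y518 and 1168 in 2-10515, and SIR4 had 368 in Y518 and 506 in 2-10515, all within 2-fold. The list's median log2 ratio was -0.08, against 0.27 over all genes compared.

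All 4 genes of meiosis entry were within 2-fold, with a median log2 ratio of -0.65. IME1, the master activator of meiosis, was far above the mating genes in level, at 455 RPKM in Y518 and 794 RPKM in 2-10515, 1.75-fold lower in Y518 (1.66 to 1.84). IME4 had 30.7 RPKM in Y518 and 43.8 RPKM in 2-10515, and IME2, the kinase that follows Ime1, had 15.5 RPKM in Y518 and 10.8 RPKM in 2-10515. RME1, which encodes a repressor of IME1 in haploid cells, had 54 reads (13.9 RPKM) in Y518 and 31 reads (7.29 RPKM) in 2-10515, within 2-fold. After centring, IME1 and NDT80 were at log2 ratios of -1.07 and -1.10.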
